A study of Mus musculus with 4 samples.

Results

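The genes of the ER secretory machinery and the unfolded protein response were examined in basal and luminal cells of the developing mouse prostate. The set was a fixed list of 54 genes, out of 49671 gene rows in the deposited table, chosen by function: translocation into the ER, signal peptide cleavage, folding, export in COPII vesicles, ER-associated degradation and ER stress signalling. The choice was made with earlier results of these data known. All 54 were found, and 53 passed the filter on low values, which asks that every library of at least 1 group be at 10 or more and that this group average 20 or more. The exception was Ern2, a paralogue of the stress sensor Ern1, which was at 0 in 3 libraries and at 6, the value of 1 read, in a basal one. RNA-seq had been performed on 2 libraries of basal cells (EpCAM high, CD49f high) and 2 of luminal cells (EpCAM high, CD49f low). The cells were sorted by FACS from prostate tips of untreated CD-1 mice, at postnatal day 10 to 13 by the labels. The study's methods give a slightly narrower age range and describe the mice as males of mixed background. Both populations came from tissue digested with collagenase for 2 h at 37 °C, and cells positive for CD45, CD31 or CD140a were gated out. No allele, transgene or agent differs between the groups. The study's methods name the ventral lobes of a group of male mice as the source, without saying how these animals were divided among the libraries, so p-values measure only the spread between these libraries, which may be technical.

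A protein destined for secretion enters the ER through the Sec61 translocon, loses its signal peptide to signal peptidase, and is folded by the Hsp70 chaperone BiP (Hspa5), by lectin chaperones and by protein disulfide isomerases before COPII vesicles carry it to the Golgi. Proteins that fail to fold are returned to the cytosol and degraded. Load on the ER is read by the sensors IRE1 (Ern1), PERK (Eif2ak3) and ATF6, which act through Xbp1 mRNA splicing, translation of Atf4 and cleavage of ATF6 itself. Those activating steps are not visible in gene-level RNA values, which measure only how much RNA of each gene was present. Prostate luminal cells are the secretory cells of the gland, while basal cells line the basement membrane.

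The response elements through which these arms act on promoters were looked for in RefSeq windows of GRCm38.p6, 250 bases before to 50 after each annotated gene start, which were held for 43 of the 54 genes. The ER stress response element, ERSE, was searched as CCAAT and CCACG with 9 bases between, on both strands. It was present in 9 of the 43 genes and in 0.137% of all 27025 genes with a window. The genes were Calr, Canx, Creld2, Derl3, Dnajc3, Hsp90b1, Hspa5, Pdia6 and Syvn1, and the Hsp90b1 window held it at 2 places. The stretches are printed so that the letters can be set beside the RNA values of each gene, which are given further on. Each runs 5′ to 3′ on the strand of its gene, with the searched letters in capitals, and the reverse strand match reads CGTGG and ATTGG.
Hspa5 (chr2:34772005-34772063, plus strand): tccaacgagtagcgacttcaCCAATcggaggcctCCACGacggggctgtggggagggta
Hsp90b1 (chr10:86705618-86705676, minus strand): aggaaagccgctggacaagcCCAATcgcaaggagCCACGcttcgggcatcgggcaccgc
Hsp90b1 (chr10:86705513-86705571, minus strand): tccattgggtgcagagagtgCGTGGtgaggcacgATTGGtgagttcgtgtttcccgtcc
Calr (chr8:84847055-84847113, minus strand): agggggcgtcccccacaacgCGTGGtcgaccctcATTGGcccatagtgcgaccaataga
Canx (chr11:50325780-50325838, minus strand): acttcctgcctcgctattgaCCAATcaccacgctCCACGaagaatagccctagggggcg
Pdia6 (chr12:17266471-17266529, plus strand): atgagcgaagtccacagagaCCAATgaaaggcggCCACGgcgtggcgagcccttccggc
Creld2 (chr15:88819500-88819558, plus strand): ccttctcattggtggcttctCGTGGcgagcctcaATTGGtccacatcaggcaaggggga
Dnajc3 (chr14:118937807-118937865, plus strand): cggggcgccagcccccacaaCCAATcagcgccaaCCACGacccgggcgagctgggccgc
Syvn1 (chr19:6046512-6046570, plus strand): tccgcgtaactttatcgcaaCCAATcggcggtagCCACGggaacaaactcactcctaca
Derl3 (chr10:75893222-75893280, plus strand): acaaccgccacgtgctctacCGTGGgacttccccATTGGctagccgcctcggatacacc

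ERSE-II, searched as ATTGG and CCACG with 1 base between, was in the windows of Herpud1 and Dnajb11 and in 0.0444% of all genes. The UPRE, searched as TGACGTGG, was in those of Sec24d and Sec23a and in 0.714% of all genes. The Dnajb11 and Sec23a matches lie just past the gene start.
Herpud1 (chr8:94386357-94386407, plus strand): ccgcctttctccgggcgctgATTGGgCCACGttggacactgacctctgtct
Dnajb11 (chr16:22857844-22857870, plus strand): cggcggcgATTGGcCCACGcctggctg
Sec24d (chr3:123267450-123267495, plus strand): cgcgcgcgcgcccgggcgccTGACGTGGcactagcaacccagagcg
Sec23a (chr12:59011996-59012019, minus strand): ctccccttTGACGTGGcagaggcg
The element bound by ATF4 with C/EBP factors, searched as TGATGNAAT, was in 0 of the 43 genes and in 1.08% of all genes. A match is a description of letters and does not show that a factor bound there.

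**Figure D1:**
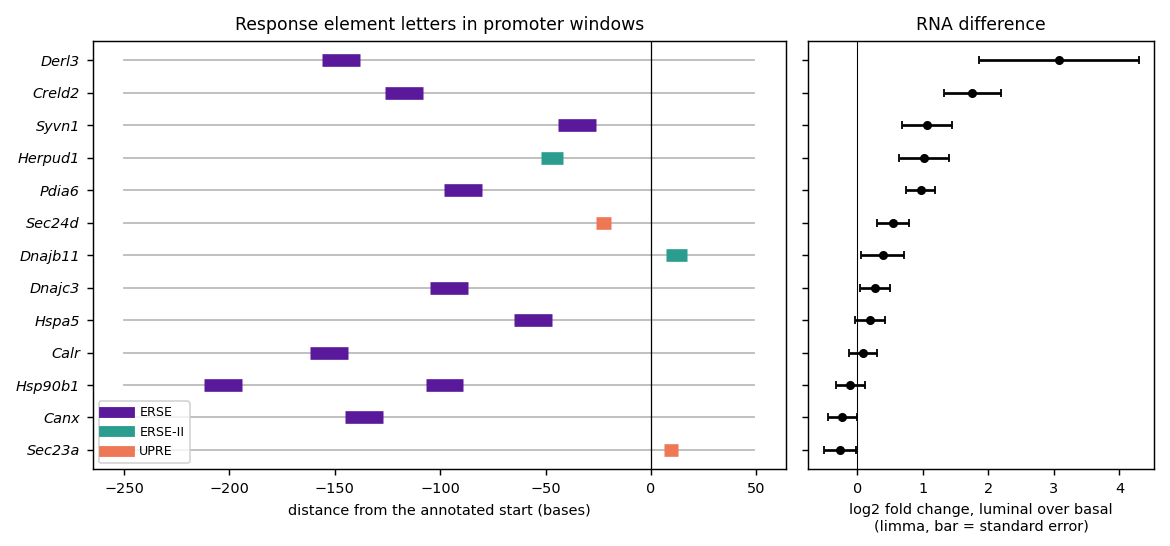
Left, promoter windows of the 13 genes with a match, drawn as lines from 250 bases before to 49 bases after the annotated start (x axis, bases), with matches as coloured blocks. Right, the log2 fold change of the same genes with its standard error (limma, 2 libraries a group). Genes with ERSE letters ran from -0.23 (Canx) to 1.75 (Creld2), apart from Derl3 at 3.07, which rests on few reads and passed the filter only through its luminal values.

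In these libraries the ER and unfolded protein response genes leaned towards luminal cells, with a few genes far apart and the most abundant chaperones close together. A fold of 2 or more in the ratio of luminal to basal averages was reached by 11 of the 53 genes (20.8%), beside 18.3% of the 18737 genes tested. A ratio of 0.5 or less was reached by 0, beside 16.3% of all genes. The 11 were Agr2, Creb3l4, Derl3, Sdf2l1, Sec11c, Creld2, Eif2ak3, Syvn1, Sec61b, Herpud1 and Sec61g. Just under the threshold were Manf (ratio 1.98), Xbp1 (1.97) and Pdia6 (1.96), and just above it Sec61g (2.10) and Herpud1 (2.15). The lowest ratio was that of Spcs3 (0.554). Derl3, at 25 and 6 in basal libraries, passed the filter through its luminal values alone, and with the filter applied to both groups 10 of 52 genes reached the fold, beside 12.4% of all genes. The share at or above 2 was near that of all genes. Among genes averaging 100 or more over the 4 libraries, the ratio was 2 or more for 9 of 50 ER genes and 11.4% of all 12544, and 0.5 or less for 0 and 12.8%.

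With limma on log2 of the normalized value plus 1 and Benjamini-Hochberg adjustment over all genes, 1 gene, Agr2, was called higher in luminal cells (background 0.256%) and 0 were called higher in basal cells (background 0.438%). At an unadjusted limma p under 0.05 there were 15 in the luminal direction and 3 in the basal direction, beside 7.82% and 10.7% of all genes. edgeR on reads recovered from the normalized values called 4 genes higher in luminal cells, Agr2, Creb3l4, Sec11c and Eif2ak3, and 0 higher in basal cells, where the background was 2.32% and 2.87%. DESeq2 called Agr2, Creb3l4 and Sec11c, 3 genes higher in luminal cells, and 0 higher in basal cells, beside 2.16% and 2.23% of the genes it fitted. Both luminal libraries lay above both basal libraries for 29 of the 53 genes (background 23.6%), and both basal above both luminal for 10 (background 27.3%). The median log2 fold change was 0.42 over the 53 genes, of which 37 were positive, and -0.10 over all genes, of which 8604 of 18737 were positive. Without luminal replicate 3 the medians were 0.25 and 0.16, and 8 genes reached a fold of 2, beside 26.8% of all genes. Without luminal replicate 2, 17 did, beside 20.5%. A single gene can reach no two-sided exact permutation p below 0.333 with 2 libraries against 2.

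**Figure D2:**
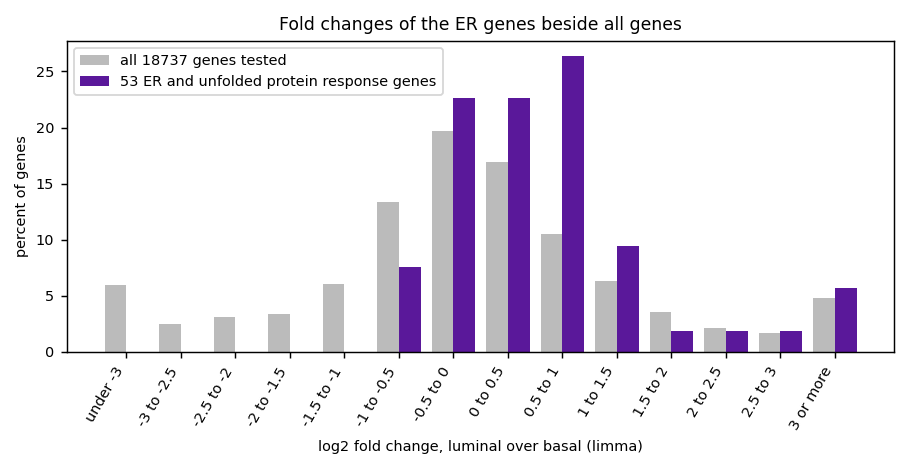
Percent of genes (y axis) in each bin of log2 fold change, luminal over basal (x axis, limma), for the 53 ER and unfolded protein response genes (purple) and all 18737 genes tested (grey). No ER gene lies under -1, and 26.4% lie between 0.5 and 1, where 10.5% of all genes lie.

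**Figure D3:**
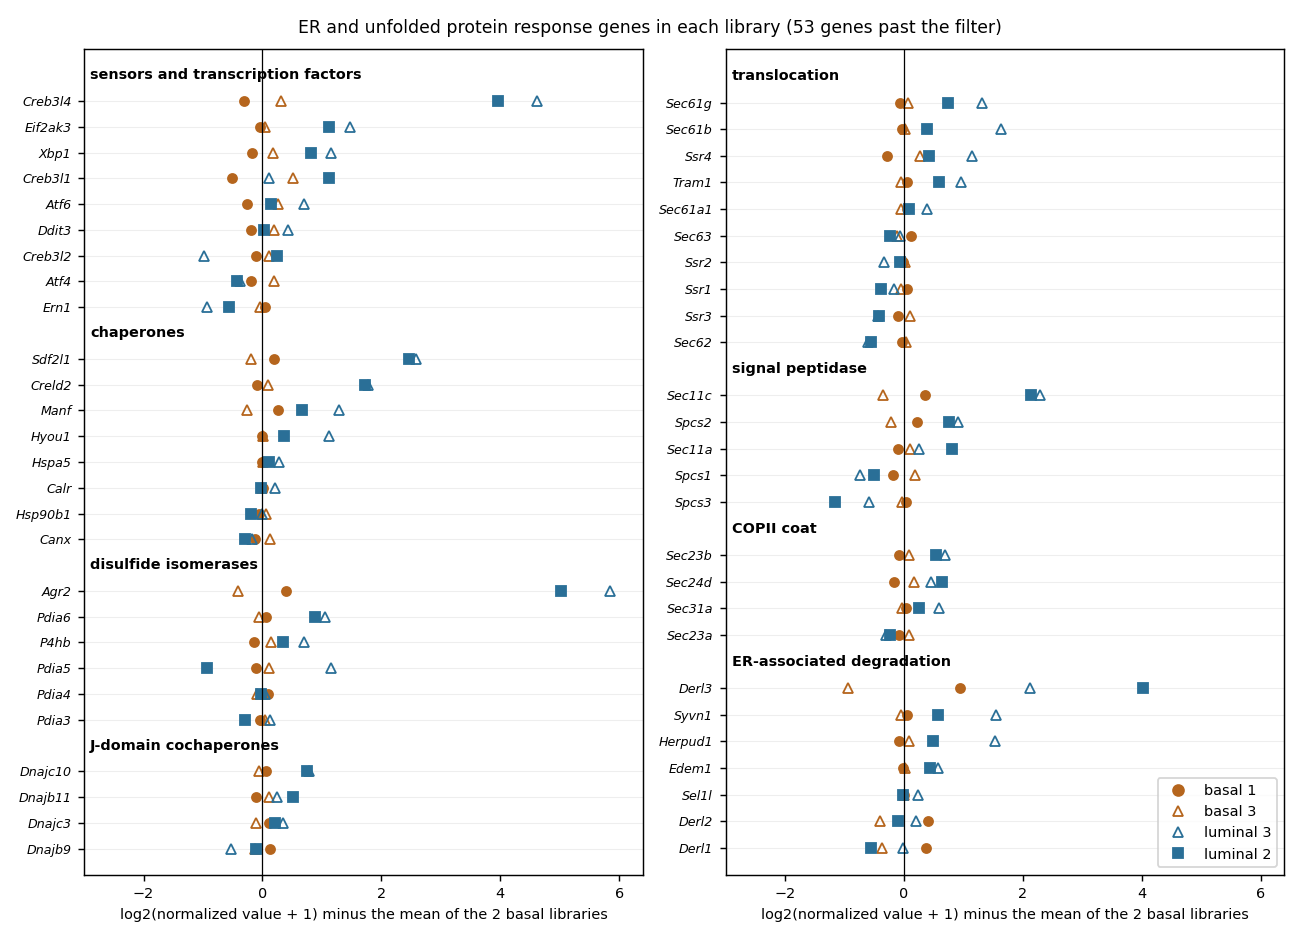
Each row is a gene and each point a library: log2(normalized value + 1) minus the mean of the basal libraries (x axis), with basal libraries in brown and luminal libraries in blue, ordered within each role by fold change. Agr2, Creb3l4, Sec11c, Creld2 and Sdf2l1 have both luminal points far to the right, and Hspa5, Calr, Hsp90b1 and Pdia4 have all 4 points near 0.

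The library values are given in the order basal replicates 1 and 3, then luminal replicates 3 and 2, as reads normalized to a common total. Reads recovered from these values numbered 3194307 and 3079273 in the basal libraries and 1036685 and 643267 in the luminal libraries. Both luminal libraries were shallower, so depth and cell type cannot be told apart. One read was worth 6.26, 6.50, 19.4 and 31.2. The basal keratin Krt5 had 18481 and 15824 in basal against 77 and 93 in luminal libraries, and Krt14 and Trp63 were likewise lower in luminal cells. Krt8 had 3012 and 4287 against 13302 and 8320. All 8 basal markers and 4 of 9 luminal markers tested passed the fold threshold in the labelled direction, beside 16.3% and 18.3% of all genes. Of the 9 luminal markers, 3 had both luminal libraries higher (background 23.6%), 1 both basal libraries higher (27.3%) and 5 overlapped. Their median log2 fold change was 0.45. CD49f (Itga6) had 20222 and 16382 against 4337 and 3584, and Epcam had 2355 and 3683 against 9081 and 6170. Of the genes gated out, Ptprc was at 150, 6, 0 and 0 and Pecam1 at 833, 637, 174 and 499, but Pdgfra, which encodes CD140a, was at 3307, 4144, 2575 and 8383. The summed stromal and smooth muscle markers were 134955 and 263019 in basal and 82611 and 262513 in luminal libraries. As deposited, these sums varied within each group and did not follow the groups. They are uncertain, because Col3a1 and Des, on the same list, had values that were not whole multiples of the value of 1 read. Nuclear protein-coding genes held 76.0% and 74.7% of the basal and 57.3% and 64.2% of the luminal values. After rescaling to those genes, the all-gene median was 0.21 in place of -0.10, and the ER genes' median was 0.73, with 45 of 53 positive. In bulk samples such as these, fewer cells of a type and less RNA per cell cannot be told apart.

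Levels per kb of exon averaged over the 4 libraries were highest for Hspa5 (4065), Atf4 (2456), Hsp90b1 (1957) and P4hb (1934). These values compare abundance between genes, which the values per gene do not. All 54 genes together took 0.575% (95% Wilson interval 0.567 to 0.583) and 0.604% (0.595 to 0.612) of reads in the basal libraries. For luminal replicate 3 the share was 0.724% (0.708 to 0.741), and luminal replicate 2 gave 0.627% (0.608 to 0.646). Only counting error enters these intervals. Luminal replicate 2 was nearer to basal replicate 3 than to the other luminal library. As a share of nuclear protein-coding reads alone, the basal libraries gave 0.757% and 0.808%. Luminal replicates 3 and 2 gave 1.26% and 0.976% on that measure.

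The disulfide isomerases included the gene with the largest fold change of the 53. Agr2 (chr12:35992907-36004087, GRCm38), an isomerase of mucus-secreting and other secretory epithelia, was at 69 and 39 in basal libraries and at 3059 and 1714 in luminal libraries. The groups were far apart, with 11 and 6 reads against 158 and 55. Agr2 rose 44.2-fold from basal to luminal cells (log2 fold change 5.44 ± 0.52, SE, n = 2 a group), with an adjusted p of 0.035 by limma and 8.5e-05 by edgeR. The limma call was lost without any one library, with adjusted p of 0.093 to 0.158, and log2 fold changes then ran from 5.02 to 5.85. The 250 bases before its RefSeq start are printed in full because it was the 1 gene called by limma, and they hold none of the 4 elements, so no letters are in capitals.
Agr2 (chr12:35992675-35992924, plus strand): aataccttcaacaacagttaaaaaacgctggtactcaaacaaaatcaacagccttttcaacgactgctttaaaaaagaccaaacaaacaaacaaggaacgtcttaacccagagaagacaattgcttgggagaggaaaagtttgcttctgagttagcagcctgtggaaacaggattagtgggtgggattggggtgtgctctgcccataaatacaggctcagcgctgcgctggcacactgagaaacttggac

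The remaining isomerases spread around a much smaller difference. P4hb, the most abundant of them per kb and also a subunit of collagen prolyl hydroxylase, was at 4064, 5002, 7358 and 5703, a log2 fold change of 0.52 ± 0.25 (limma adjusted p = 0.337). Pdia6, which also regulates the sensor IRE1, was at 1866, 1708, 3698 and 3303 (0.97 ± 0.22, limma adjusted p = 0.086). Both genes had higher values in both luminal libraries, without passing the test. Pdia3, the partner of calnexin and calreticulin, was at 5586, 5983, 6293 and 4737, and Pdia4 at 1584, 1397, 1530 and 1465. Pdia5, at 56, 65, 136 and 31, had its highest and its lowest value among the luminal libraries. Of 6 isomerases, 3 had both luminal libraries above both basal ones (background 23.6%) and 0 the reverse (27.3%), and their median log2 fold change was 0.32.

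Among sensors and transcription factors, the PERK sensor, Xbp1 and Creb3l4 lay on the luminal side and the IRE1 sensor and Atf4 on the basal side. Xbp1, whose spliced form drives chaperone, translocon and degradation genes, was at 1954, 2507, 4899 and 3895. The groups did not overlap, and the log2 fold change was 0.98 ± 0.25 (limma adjusted p = 0.115, edgeR 0.099). Ern1, which encodes the IRE1 kinase and nuclease that splices Xbp1 mRNA, had the opposite order at 4033, 3813, 2052 and 2649 (-0.75 ± 0.24, limma adjusted p = 0.182). Neither passed the test. Their opposite signs held under each scaling tried, from 1.02 to 1.31 for Xbp1 and from -0.71 to -0.42 for Ern1.

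Eif2ak3 (chr6:70844515-70905245), the PERK kinase that phosphorylates eIF2α and slows translation, was at 595, 637, 1704 and 1340. Both luminal libraries were above either basal one by a wide margin. The ratio of averages was 2.47 and the log2 fold change 1.29 ± 0.28, with an adjusted p of 0.073 by limma and 0.049 by edgeR. A short antisense model, Gm43292, overlaps its transcript. Atf4, the transcription factor whose translation PERK permits, was at 5730, 7490, 5054 and 4893 (-0.40 ± 0.23, limma adjusted p = 0.422), and its sign turned, to 0.0063, under quantile normalization. Ddit3, which encodes the pro-apoptotic factor CHOP downstream of ATF4, was at 482, 624, 736 and 561, with overlapping groups (0.23 ± 0.34, limma adjusted p = 0.736). Thus the PERK sensor was higher by edgeR alone, and neither Atf4 nor Ddit3 passed a test.

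Atf6, the sensor that is cut in the Golgi to release a transcription factor, was at 1503, 2150, 2904 and 1994, with overlapping groups (0.42 ± 0.31, limma adjusted p = 0.511). Creb3l4 (chr3:90237500-90243512), a membrane-bound CREB3 family factor cut in a similar way and known from prostate epithelium, was at 25 and 39 in basal and at 794 and 499 in luminal libraries. This rested on 4 and 6 against 41 and 16 reads. The ratio of averages was 20.2 and the log2 fold change 4.29 ± 0.65. The adjusted p was 0.064 by limma and 0.0017 by edgeR. Pooled over each group, the ratio of reads per library depth was 21.3, with an exact counting interval of 10.8 to 46.8. Its relatives differed less: Creb3l1 was at 251, 513, 387 and 779 and Creb3l2 at 2655, 3085, 1452 and 3397, both with overlapping groups.

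The most abundant ER chaperones differed little in value, and several less abundant cofactors had higher luminal values. Hspa5 (chr2:34771970-34777547), encoding BiP, was at 15995, 16057, 19420 and 17295. The basal libraries nearly coincided and the luminal ones lay slightly above, a log2 fold change of 0.19 ± 0.23 (limma adjusted p = 0.661). Hsp90b1, encoding GRP94, was at 7803, 8548, 8113 and 7105, Calr at 4960, 4937, 5731 and 4861, and Canx at 7321, 8802, 7106 and 6575. Hsp90b1 and Calr overlapped between groups, and Canx was higher in both basal libraries by a log2 difference of 0.23 that did not pass the test. Under quantile normalization and under scaling to nuclear protein-coding genes Canx turned to 0.14 and 0.08, and Hsp90b1 to 0.25 and 0.20. A noncoding transcript, 1810014B01Rik, overlaps Hsp90b1 on the other strand, and use of strand in the counting is not stated.

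Creld2 (chr15:88819646-88826683), an ER stress-inducible isomerase-like protein, was at 132 and 149 in basal and at 484 and 467 in luminal libraries. Replicates were close within each group, and the ratio of averages was 3.38 (log2 fold change 1.75 ± 0.44, limma adjusted p = 0.105, edgeR 0.082). Sdf2l1, a component of the BiP complex, was at 25, 19, 136 and 125, which is 4, 3, 7 and 4 reads. With so few reads its pooled ratio of 5.87 had an exact counting interval of 2.08 to 17.9. Manf, a BiP cofactor, was at 664, 461, 1355 and 873, and Hyou1, the BiP nucleotide exchange factor GRP170, at 1296, 1325, 2846 and 1683. In both of these genes luminal replicate 3 was the highest library. Of 8 chaperones and cofactors, 5 had both luminal libraries higher (background 23.6%) and 1, Canx, both basal libraries higher (27.3%).

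Of the 4 J-domain cochaperones, which stimulate BiP, 0 reached a fold of 2 in either direction, beside 18.3% (luminal) and 16.3% (basal) of all genes. Dnajb9 (ERdj4), a BiP cochaperone that represses IRE1 and the most abundant of them per kb, was at 2687, 2241, 1704 and 2275 (-0.32 ± 0.26, limma adjusted p = 0.543). Dnajc10, a reductase that aids degradation, was at 2386, 2196, 3931 and 3864, with close replicates and no overlap (0.77 ± 0.21, limma adjusted p = 0.133). Dnajb11 was at 420, 494, 542 and 654, and Dnajc3, the inhibitor p58IPK of PERK, at 2436, 2072, 2846 and 2586. These 2 genes were slightly higher in both luminal libraries.

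Translocation genes were divided. The small translocon subunits Sec61b and Sec61g were at 257, 266, 813 and 343 and at 88, 97, 232 and 156, log2 fold changes of 1.01 ± 0.52 and 1.03 ± 0.63 (limma adjusted p = 0.374 and 0.436). For Sec61b the difference came mostly from luminal replicate 3. Without that library the log2 fold changes were 0.39 and 0.75, and neither gene reached a fold of 2. Both genes have close copies that could share reads: Gm10320 is 98.3% identical to Sec61b over 474 bases, and Gm10177 matches Sec61g over 420 bases. Gm10320 was at 38, 0, 19 and 0. Gm10177 was at 213, 201, 368 and 125, with its highest and its lowest value both luminal. The channel subunit Sec61a1, at 2217, 2053, 2788 and 2275, was slightly higher in luminal cells. Tram1, a translocation partner of the channel, was at 2023, 1877, 3795 and 2929, and Ssr4, a subunit of the TRAP complex, at 539, 792, 1452 and 873, both without overlap.

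The other TRAP subunits went the other way in value. Ssr3, the most abundant translocation gene per kb, was at 4152, 4807, 3311 and 3334 (-0.43 ± 0.21, limma adjusted p = 0.358), Ssr1 at 3313, 3072, 2827 and 2431, and Ssr2 at 1397, 1423, 1123 and 1340. Sec62, which acts in post-translational translocation and in recovery from ER stress, was at 2956, 3079, 1975 and 2057 (-0.58 ± 0.21, limma adjusted p = 0.237). In all of these 4 genes both basal libraries were above both luminal ones, though none passed the test. Of the 10 translocation genes, 5 had both luminal libraries higher (background 23.6%), 4 both basal libraries higher (27.3%) and 1 overlapped. Scaling to nuclear protein-coding genes turned Ssr1 to 0.03 and Ssr2 to 0.11, as did quantile normalization (0.04 for each), whereas Ssr3 and Sec62 stayed negative. Sec63, the J-domain partner of Sec62, was at 2724, 2293, 2382 and 2119 and overlapped. Antisense models overlap Sec61a1 (Gm44170) and Sec62 (4933429H19Rik). The median of the 10 translocation genes was 0.04, the lowest of the 8 roles.

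Signal peptidase subunits also differed in direction. Sec11c, a catalytic subunit, was at 182 and 110 in basal and 697 and 623 in luminal libraries, a ratio of 4.52 and a log2 fold change of 2.21 ± 0.46. It passed by edgeR (adjusted p = 0.021) and not by limma (0.071). The alternative catalytic subunit Sec11a was at 382, 435, 484 and 717, a much smaller step (0.53 ± 0.37). Spcs3, a noncatalytic subunit needed for cleavage and the most abundant of the complex per kb, was at 1428, 1371, 929 and 623 (-0.88 ± 0.31, limma adjusted p = 0.218). Spcs1 was at 426, 552, 290 and 343, and Spcs2 at 814, 598, 1317 and 1184. All 5 subunits were separated between groups, 3 with higher luminal and 2 with higher basal libraries, orders found in 23.6% and 27.3% of all genes. Spcs1 overlaps Glt8d1 on the other strand, and Spcs2 has a pseudogene of 95.8% identity over 683 bases.

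COPII coat genes lay within a narrow range. Sec31a, an outer coat subunit and the most abundant of them per kb, was at 4215, 3988, 6157 and 4861 (0.42 ± 0.23, limma adjusted p = 0.396). Sec24d, a cargo adaptor, was at 1534, 1949, 2382 and 2680 and Sec23b at 814, 909, 1394 and 1247, both higher in both luminal libraries. The paralogue Sec23a, at 1221, 1358, 1046 and 1091, was higher in both basal libraries, with a log2 fold change of -0.27 that turned to 0.04 under scaling to nuclear protein-coding genes. None of the 4 passed a test.

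In ER-associated degradation, 3 of 7 genes had a ratio of 2 or more in luminal cells, beside 18.3% of all genes. For 2 of them the value rested on luminal replicate 3, and the other, Derl3, was tested only because its luminal values passed the filter. Herpud1, which organizes the degradation complex at the membrane, was at 1685, 1903, 5189 and 2524 (1.01 ± 0.38, limma adjusted p = 0.249). Syvn1, the ubiquitin ligase HRD1, was at 827, 766, 2343 and 1184 (1.06 ± 0.39, limma adjusted p = 0.235). Without luminal replicate 3 their log2 fold changes were 0.49 and 0.57, below a fold of 2. Derl3, a derlin of secretory tissues, was at 25, 6, 58 and 218, which is 4, 1, 3 and 7 reads, and its pooled ratio of 7.47 had an exact counting interval of 2.33 to 27.8. Edem1, which directs misfolded glycoproteins to degradation, was at 1666, 1702, 2498 and 2275 (0.50 ± 0.22, limma adjusted p = 0.308). Sel1l, the partner of HRD1, was at 2098, 2085, 2459 and 2057, Derl1 at 1058, 637, 813 and 561 and Derl2 at 401, 227, 349 and 280, with overlapping groups in each.

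Set beside the promoter letters, the 9 genes with ERSE letters had a median log2 fold change of 0.27, with both luminal libraries higher in 6 (background 23.6%), both basal higher in 1 (27.3%) and overlap in 2. Limma and edgeR each called 0 of the 9, beside 0.694% and 5.19% of all genes. At an unadjusted limma p under 0.05 in either direction were 4 (18.5% of all genes). A fold of 2 or more was reached by 3 of the 9, Creld2, Syvn1 and Derl3, beside 18.3% of all genes. Of these, Derl3 alone passed the filter only through its luminal values. Genes past the fold that had a window numbered 10. Below a fold of 2 were 6 of the 9, out of 33 tested genes with a window: Pdia6, Dnajc3, Hspa5, Calr, Hsp90b1 and Canx. The same letters thus stood before genes with small log2 fold changes, such as Hspa5 (0.19) and Calr (0.09). They also stood before genes with larger ones, such as Creld2 (1.75) and Pdia6 (0.97). Agr2, Creb3l4, Eif2ak3 and Xbp1 held none of the 4 elements in their windows.

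Other ER genes were counted from 10 lists of related functions outside the 54 genes, with 154 genes found and 148 tested. A fold of 2 was reached by 12 in luminal cells (8.11%, beside 18.3% of all genes) and by 11 in basal cells (7.43%, beside 16.3%), and their median log2 fold change was -0.08. Limma called 0 of them, with 16 at an unadjusted p under 0.05, beside 18.5% of all genes, and edgeR called 4, all higher in luminal cells, beside 2.32% of all genes in that direction and 2.87% in the other. The first pair were degradation genes: Sel1l3, a Sel1l homologue, at 820, 786, 3795 and 2742, and Edem3, a glycoprotein mannosidase, at 2054, 1793, 4550 and 4550 (edgeR adjusted p = 0.0029 and 0.024). Another was Txndc11, a thioredoxin-like ER protein, at 1015, 994, 2595 and 2213 (edgeR adjusted p = 0.034). The last was Nupr1, a stress-induced transcription regulator, at 38, 331, 5499 and 3989 (edgeR adjusted p = 0.0017).

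Genes known as targets of ATF4 and the integrated stress response had a median below that of all genes, while their summed values overlapped between the groups. Of 22 tested, 7 had a ratio of 0.5 or less, beside 16.3% of all genes, and 2 (Nupr1 and Stc2) a ratio of 2 or more, beside 18.3%. Both basal libraries were higher in 10, beside 27.3% of all genes. The list summed to 58763 and 42273 in basal and to 45251 and 46398 in luminal libraries, with the highest and the lowest library both basal. Their median was -0.49, beside -0.10 for all genes, and -0.18 beside 0.21 under scaling to nuclear protein-coding genes. None of the 7 passed limma, nor edgeR in the 6 it covered, and limma called 0 of the 22, with 2 at an unadjusted p under 0.05 (18.5% of all genes). The Mthfd2 values, 481, 174, 116 and 125, were not on the spacing of their libraries and are uncertain. Over the same libraries, 11 genes induced by tissue dissociation summed to 343832 and 185244 in basal and 127618 and 194267 in luminal libraries, with a median log2 fold change of -0.83 and Atf3 on both lists. The part of dissociation in the Atf4 and Ddit3 values was not tested.

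In the remaining lists, oxidative folding genes included Ero1l, the oxidase that recharges disulfide isomerases, at 1052, 539, 97 and 467, and Tmx2 at 232, 227, 155 and 31. Their 14 tested genes had a median of -0.39, with 3 past the fold in basal cells (21.4%, beside 16.3% of all genes) and 1 in luminal cells (7.14%, beside 18.3%). Signal recognition particle genes had a median of 0.32 over 8 genes, and the 1 past the fold in luminal cells (12.5%, beside the same 18.3%), Srp54c at 75, 65, 174 and 280, has close paralogues that could share its reads. Oligosaccharyltransferase subunits, which attach N-glycans to proteins as they enter the ER, had a median of 0.08 over 12 genes with 0 past the fold in either direction. Glycan quality control genes likewise had 0 past the fold over 9 genes, with a median of -0.22. Of the named genes of the other lists, Copz2 was at 132, 149, 252 and 499, Tmed3 at 294, 494, 1046 and 686, Emc7 at 752, 617, 387 and 280, Svip at 94, 26, 155 and 187, Sil1 at 75, 143, 368 and 374, Creb3 at 150, 136, 484 and 187 and Stc2 at 6, 65, 310 and 62. None of these 7 passed limma or edgeR.

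**Figure D4:**
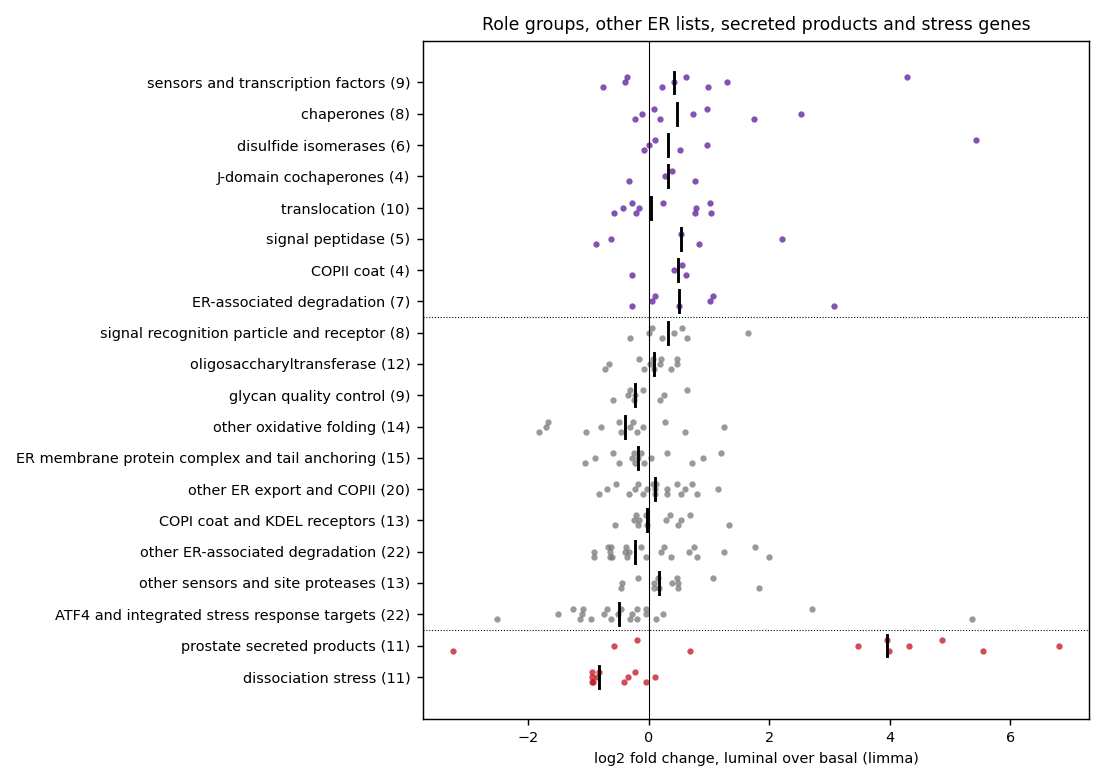
Log2 fold change, luminal over basal (x axis, limma), of each tested gene in the 8 role groups (purple), the 10 other ER lists (grey) and 2 comparison lists (red), with the number tested in parentheses and the median as a black bar. The role medians run from 0.04 to 0.53, the median of ATF4 targets is -0.49 and that of prostate secreted products 3.95.

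The cargo of the secretory route differed by larger folds than most of the machinery. Prostate secreted products summed to 4542 and 7001 in basal and 36554 and 45435 in luminal libraries. Of 17 found, 11 were tested and 6 did not pass the filter on low values. A fold of 2 in luminal cells was reached by 7 of the 11, beside 18.3% of all genes, and the reciprocal fold in basal cells by 1, beside 16.3%. The latter was Lcn2, a siderophore-binding protein, at 1015 and 968 in basal and 174 and 62 in luminal libraries (limma adjusted p = 0.069, edgeR 0.00497). Limma called 2, both higher in luminal cells, beside 0.256% of all genes in that direction and 0.438% in the other. By edgeR, 6 were called higher in luminal and 1, Lcn2, higher in basal cells, beside 2.32% and 2.87% of all genes. The 2 passing limma were Pbsn, which encodes probasin, at 88, 26, 1878 and 2805, and Defb50, a defensin, at 614, 390, 13437 and 15332 (adjusted p = 0.048 and 0.018). Over the same libraries the chaperone genes summed to 38196, 40298, 45191 and 38984 and the disulfide isomerases to 13225, 14194, 22074 and 16953. The summed translocation genes were 19666, 19759, 20698 and 17857, with the highest and lowest library both luminal. Plasma cell markers, looked at because plasma cells express many of these ER genes strongly, summed to 112, 31, 19 and 0. Jchain, their joining chain, was at 31, 6, 0 and 0. Seminal vesicle markers, from a neighbouring gland that also secretes, summed to 0, 13, 464 and 62, which is 0, 2, 24 and 2 reads. Svs4 was at 0, 0, 174 and 62, and was the 1 gene of these 7 to pass the filter, through its luminal values alone. Luminal replicate 3 held nearly all of these seminal vesicle reads. The part of these markers in the cargo values was not tested.

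**Figure D5:**
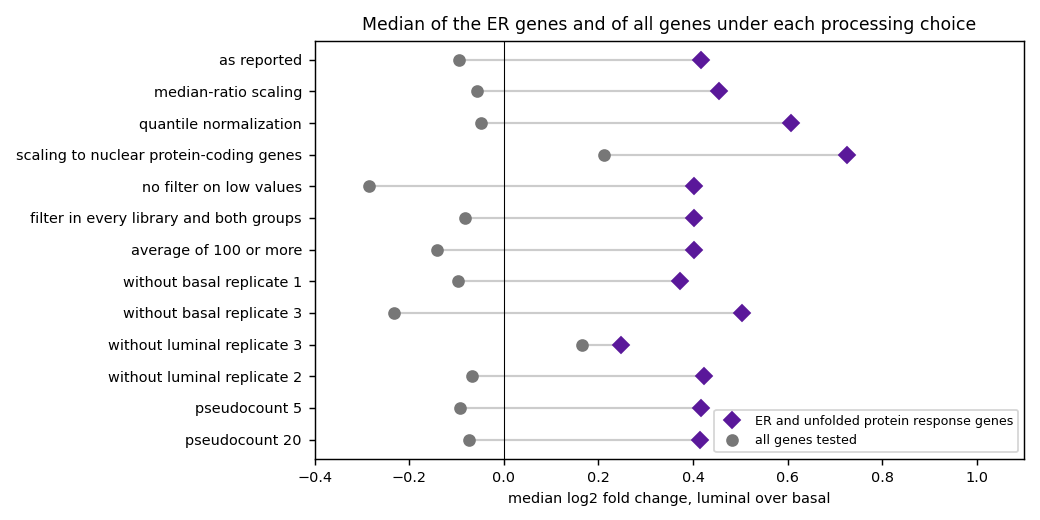
Median log2 fold change, luminal over basal (x axis), of the ER and unfolded protein response genes (purple diamonds) and of all genes tested (grey circles) under each processing choice (rows). The ER genes lie to the right of all genes in each row, by the least without luminal replicate 3 (0.25 against 0.16).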

How the data were processed

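The authors mapped reads to GRCm38 with STAR, counted them per gene with HTSeq on the Ensembl release 87 annotation, scaled each library to a common total and rounded the result. The deposited values are thus a signal for each gene in each library. Picard is named in the submitters' processing notes without a role, and the tool versions, the use of strand and the handling of duplicates are not given in the sources used here. The number of value columns left without a sample was 0. Library totals ran from 19998940 to 20071189.

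Low values lay on multiples of 1 number in each library, the value of 1 read: 99.0% and 97.9% of them in basal replicates 1 and 3, and 98.6% and 98.3% in luminal replicates 3 and 2. Dividing by it recovered whole reads. Values of 571 rows lay off this spacing and were kept out of count tests, and all 54 ER genes were on it.

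Symbols and coordinates came from GENCODE vM21 (GRCm38), which held 49326 of 49671 identifiers. The filter kept genes whose libraries in 1 or both groups were all at 10 or more, with an average there of 20 or more. Fold calls used ratios of averages of 2 and 0.5, as in the study's methods. limma 3.58.1 was fitted to log2(value + 1) with a trended prior, and p-values were adjusted over 18737 genes by Benjamini-Hochberg. The pseudocount shrinks fold changes of low genes on that scale, and as differences of mean logs they can lie above or below the log2 ratio of averages. The recovered reads went into edgeR 4.0.16 with TMM and into DESeq2 1.42.0. Copies of at least 95% identity over 200 bases were found with blastn 2.17.0+. Other tools were R 4.3.3, scipy 1.17.1 and pandas 2.3.3, with matplotlib 3.10.9 for plots. Scripts were tested on simulated data.

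The 54 genes and all lists were chosen with earlier results of these data known. Library values were given for genes past the fold at an average of 100 or more, for 7 core genes (Xbp1, Atf4, Atf6, Ern1, Eif2ak3, Ddit3, Hspa5), for the gene of each role with the highest level per kb, and for up to 3 genes past the fold in each other list. Other genes with values were named after these were seen.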

Additional observations from a re-analysis of the deposited data

How the results depend on the processing

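Of the genes named by the rule, those of the other lists included, all kept their direction under the alternatives that covered them except Atf4, whose log2 fold change was 0.0063 under quantile normalization. Of all 53 ER genes, 8 turned sign under quantile normalization, 8 under scaling to nuclear protein-coding genes and 0 under median-ratio scaling. Genes at a fold of 2 in luminal cells numbered 17 with quantile normalization (16.9% of all genes), 19 with scaling to nuclear protein-coding genes (24.3%) and 21 at a threshold of 1.5 (27.4%). With 1 library left out they ranged from 8, without luminal replicate 3 (26.8% of all genes), to 17, without luminal replicate 2 (20.5%). Those at the reciprocal fold in basal cells numbered 1 with no filter (Ern2; 28.0%), 3 at a threshold of 1.5 (27.4%), and 0 to 1 with a library left out (17.0% to 23.4%). The median of the ER genes was 0.61 with quantile normalization, 0.73 with nuclear protein-coding scaling, and 0.25 to 0.50 with a library left out.

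Genes called by limma, 1 as reported beside 0.694% of all genes, numbered 0 with no filter, where it called 0 of all genes. They numbered 3 with quantile normalization (4.67%), with the filter in every library (4.53%) and with an average of 100 (4.25%), and 2 with either other pseudocount (2.23% and 3.38%) or without the trended prior (2.90%). With any library left out there were 0, where the lone remaining library is assumed to vary like the other group and 312 to 991 of all genes were called (1.66% to 4.78%). Agr2 then kept its direction, as it did with no filter (adjusted p = 0.228). edgeR called 4 with TMM (5.19%) and 9 without (5.91%), and DESeq2 called 3 (4.39%). Other ER genes past the fold numbered 19 in luminal cells with nuclear protein-coding scaling (24.3% of all genes). In basal cells they numbered 7 with median-ratio scaling (15.6%) and 3 with nuclear protein-coding scaling (11.5%). The causes of these shifts were not tested.

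No paired analysis was possible because the groups share only replicate number 3. With 2 libraries a group, shallower luminal libraries and no statement of which animals gave which library, small differences such as that of Hspa5 could not be resolved, and genes of few reads, such as Derl3 and Sdf2l1, have wide counting intervals.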
